A study of Mus musculus with 4 samples.

Results

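Voltage-gated and potassium ion channel genes were examined in gastrocnemius muscle, a calf muscle, of mice that overexpress the nuclear receptor PPARbeta. A gene was taken when its symbol in the platform annotation starts with Kcn, Clcn or Cacn, or with Scn followed by a number and a or b, and when its probe set of highest mean read 300 signal units or more on at least 2 of the 4 arrays. Of 12393 genes with a single-symbol probe set, 101 had such a symbol, on 151 probe sets, and 40 of the 101 met the signal rule. The rule used the signal level and no difference between groups. A gene can nevertheless meet it through 1 group alone, and that gene then had to differ: 3 genes (Kcnab2, Kcne4 and Kcnk4) met it on the MCK-PPARb arrays only and 1 (Kcnc4) on the non-transgenic arrays only. On all 4 arrays 21 of the 40 read 300 or more. Just inside the rule, the deciding second-highest signal was 310.2 for Cacna1c, 313 for Kcnip4 and 333 for Kcnab2, and just outside it was 296 for Cacna1f, 291 for Kcnq5 and 273 for Kcnj10.

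Total RNA of mice aged 6 weeks was hybridised to 4 Affymetrix arrays as biotinylated cRNA. The non-transgenic group holds 2 arrays of wild-type littermates, and the MCK-PPARb group 2 arrays of transgenic littermates in which the labels call the PPARbeta overexpression muscle-specific. MCK is the usual abbreviation of muscle creatine kinase, whose promoter drives transgenes in striated muscle, although none of the sources used here gives the promoter, the strain, the sex or the number of founder lines. The labels speak of biological replicates, but the design text leaves it unclear whether each array is a separate mouse. The p-values therefore measure the spread between arrays, and that spread may be technical. Values are deposited signals on a linear scale. Ppard, the gene of PPARbeta, read 2169 and 2825 on the non-transgenic and 126049 and 98797 on the MCK-PPARb arrays, in the direction of the labels.

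Voltage-gated channels open when the membrane potential changes and carry the action potential of the muscle fibre: sodium channels start it, and potassium and chloride channels end it and hold the resting potential. In skeletal muscle a calcium channel of the surface membrane senses the voltage and opens the calcium release channel of the internal store. A potassium channel is built from pore-forming alpha subunits, to which auxiliary subunits add that alter its gating, its inactivation or its passage to the surface. Inward rectifier, calcium-activated and tandem-pore potassium channels set the resting potential in response to metabolism, calcium, stretch or lipids.

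In MCK-PPARb muscle the beta subunit gene Kcnab1 read 3.74-fold lower and Kcne1l, an accessory subunit gene, 4.66-fold higher. The groups did not overlap, and neither gene passed the test. With signals under the filter level of the test raised to it, the folds were 2.61 for Kcnab1 and 3.71 for Kcne1l. The potassium channel gene Kcnc4 read lower, by 3.88-fold when signals under the filter level of the test are raised to it, and that value did not pass either (adjusted p = 0.337). Kcnc4 was called in a fit of the unraised signals without the filter, but it met the signal rule through the non-transgenic arrays alone, so a difference was built in. The subunit genes of the muscle calcium channel (Cacna1s, Cacnb1, Cacng1, Cacng6 and Cacna2d1) lay between -0.35 and -0.044 on the log2 scale in their probe sets of highest mean, their other probe sets of 300 units or more lay between -0.93 and 0.14, and none was called. Groups were compared on log2 signals with limma, a linear model that pools the spread over genes, in a test in both directions with Benjamini-Hochberg adjustment. The test ran on probe sets whose mean over all arrays exceeded 444 signal units, the median of all probe sets. The threshold for a call was an adjusted p under 0.05, and differences are MCK-PPARb minus non-transgenic with their standard error, over 2 arrays per group. Of the 40 channel genes, 22 lay above that level and 18 below it. None of the 22 was called with limma, in either direction, against 0.731% of all 6841 genes tested, 28 of them higher (0.409%) and 22 lower (0.322%). With median centring of the arrays that split was 33 higher and 41 lower. At an unadjusted limma p under 0.05 there were 5, 1 of them higher (Kcne1l) and 4 lower (Kcnab1, Kcna7, Kcnj12 and Kcnc1), against 5.31% and 5.57% of all genes tested (10.9% in either direction). In a second fit without the level filter, which covers all 40 genes, 1 was called, Kcnc4, which was lower, against 0.428% of the 12393 genes of that fit (0.242% higher and 0.186% lower) and 0.635% of the 8342 genes that meet the signal rule. At an unadjusted p under 0.05 that fit had 4 channel genes higher and 6 lower, against 5.26% and 5.15% (10.4% in either direction) of those 8342 genes. Of these, Kcnab2, Kcne4 and Kcnk4 among the higher and Kcnc4 among the lower met the signal rule through 1 group alone, so neither this count nor the call of Kcnc4 is read against the background. With 2 arrays on each side, exact permutation gives p = 0.333 at best, so it was not used gene by gene.

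The MCK-PPARb and non-transgenic signals did not overlap for 20 of the 40 channel genes, 9 higher and 11 lower in MCK-PPARb muscle. Of the 8342 genes that meet the same signal rule, 22.2% were higher and 19.0% lower without overlap, 41.3% in all. The members that met the rule through 1 group are part of the count, so no more is read from it. The median log2 difference was -0.018 over the 40 genes and -0.26 over the 22 tested, and 0.011 over all genes tested. Differences ran from -4.30 for Kcnc4 to 3.23 for Kcne4.

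**Figure D1:**
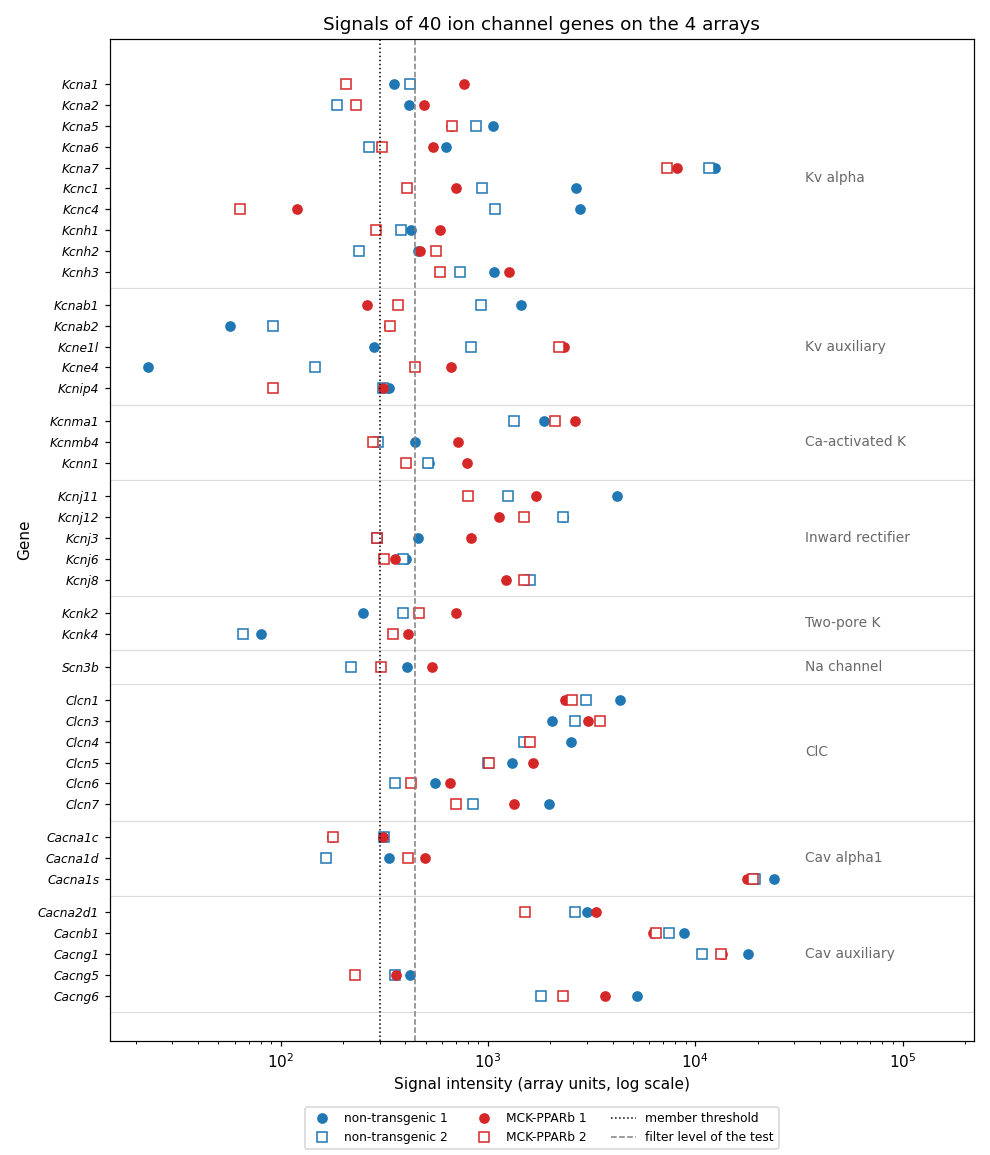
Signal intensity (array units, log axis) of the 40 ion channel genes on each of the 4 arrays, grouped by role; blue marks are non-transgenic and red marks MCK-PPARb arrays, filled for replicate 1 and open for replicate 2, with the 300 unit member threshold dotted and the 444 unit filter level of the test dashed. The red marks of Kcnc4 lie left of both lines and its blue marks right of them, those of Kcne4 are arranged the other way, and the red marks of Kcnab2 and Kcnk4 lie between the lines with the blue ones left of both.

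To show start regions of genes that read lower and of genes that read higher, the 250 bases before the RefSeq start (GRCm38.p6) are printed. The genes are potassium channel genes with an unadjusted limma p under 0.05 in the fit without a filter, picked by name after their values were seen. Kcnab1 and Kcnab2 were left out, as was any window of the picked genes listed on a further chromosome. The bases are written in the direction of transcription, and capitals mark the motif matches described after them. The windows are Kcnc4 at chr3:107458899-107459148 on the minus strand, Kcnc1 at chr7:46396218-46396467 on the plus strand, Kcna7 at chr7:45405710-45405959 on the plus strand, Kcnj12 at chr11:61065554-61065803 on the plus strand, Kcne1l at chrX:142306199-142306448 on the minus strand, Kcne4 at chr1:78816661-78816910 on the plus strand and Kcnk4 at chr19:6934516-6934765 on the minus strand. Kcnc4, Kcnc1, Kcna7 and Kcnj12 read lower in MCK-PPARb muscle and Kcne1l, Kcne4 and Kcnk4 read higher.
Kcnc4: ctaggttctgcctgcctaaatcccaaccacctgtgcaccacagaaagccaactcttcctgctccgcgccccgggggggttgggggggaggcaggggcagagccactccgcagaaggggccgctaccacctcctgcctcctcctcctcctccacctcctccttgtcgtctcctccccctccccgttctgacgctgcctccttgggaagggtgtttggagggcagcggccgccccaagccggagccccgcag
Kcnc1: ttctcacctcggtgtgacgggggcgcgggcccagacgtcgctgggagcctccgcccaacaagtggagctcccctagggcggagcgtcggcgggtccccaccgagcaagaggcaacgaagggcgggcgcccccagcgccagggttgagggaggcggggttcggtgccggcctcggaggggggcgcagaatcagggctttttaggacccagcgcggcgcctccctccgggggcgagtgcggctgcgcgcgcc
Kcna7: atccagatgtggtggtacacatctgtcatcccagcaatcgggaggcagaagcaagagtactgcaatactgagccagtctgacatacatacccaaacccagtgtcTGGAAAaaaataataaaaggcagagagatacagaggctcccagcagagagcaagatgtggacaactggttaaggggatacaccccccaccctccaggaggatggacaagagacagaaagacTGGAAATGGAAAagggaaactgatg
Kcnj12: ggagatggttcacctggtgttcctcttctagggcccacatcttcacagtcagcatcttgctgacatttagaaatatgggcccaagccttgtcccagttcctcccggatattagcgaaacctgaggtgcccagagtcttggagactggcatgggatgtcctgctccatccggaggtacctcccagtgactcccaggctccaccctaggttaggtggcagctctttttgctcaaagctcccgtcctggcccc
Kcne1l: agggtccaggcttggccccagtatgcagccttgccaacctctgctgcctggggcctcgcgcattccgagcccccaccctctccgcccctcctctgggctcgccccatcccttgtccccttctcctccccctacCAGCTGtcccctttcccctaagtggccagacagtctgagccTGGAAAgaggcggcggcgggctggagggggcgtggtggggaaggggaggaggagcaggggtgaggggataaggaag
Kcne4: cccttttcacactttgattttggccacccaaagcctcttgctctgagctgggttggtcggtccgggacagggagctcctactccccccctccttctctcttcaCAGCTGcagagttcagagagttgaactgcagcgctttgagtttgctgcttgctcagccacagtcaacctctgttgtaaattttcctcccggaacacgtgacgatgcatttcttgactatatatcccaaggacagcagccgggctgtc
Kcnk4: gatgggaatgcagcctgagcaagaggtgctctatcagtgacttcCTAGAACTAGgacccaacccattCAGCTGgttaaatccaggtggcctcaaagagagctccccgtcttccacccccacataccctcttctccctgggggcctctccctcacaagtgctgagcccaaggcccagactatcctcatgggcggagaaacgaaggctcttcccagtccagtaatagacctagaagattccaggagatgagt

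Motifs were searched on both strands. AGGTCA is the core motif of nuclear receptors such as PPARbeta. The direct repeat of AGGTCA with 1 base between the copies contains that motif and is bound by PPAR with its partner RXR. CAGCTG is an E-box of myogenic factors, and TGGAAA is the core of NFAT sites. The pattern of CTA, any 4 bases and TAG is looser than a MEF2 site, so a match need not be one. TATAAA was searched as well. RefSeq gave 54 windows for 35 of the 40 channel genes, and 5 genes had none in the table. The direct repeat was in none of the 54 windows and in 0.0335% of all 32841 windows. AGGTCA was in 3 of the 54 windows, those of Clcn7, Kcnh1 and Kcnip4, and in 14.0% of all. In the windows printed, CAGCTG was found for Kcne1l, Kcne4 and Kcnk4, and the CTA and TAG pattern for Kcnk4, with GAAC between. TGGAAA was found for Kcna7, where it occurs 3 times, and for Kcne1l. CAGCTG was in 12 of the 54 windows of channel genes (22.2%), those of 10 genes, and in 13.0% of all windows. Besides those printed, the genes were Cacna1d and Kcnk2, higher without overlap, and Cacna1s, lower without overlap. The others were Clcn5, Kcna2, Kcnj3 and Kcnn1, whose groups overlapped. A link of a motif with a direction was not tested. The CTA and TAG pattern was in 2 (3.70%) and 3.20%, TGGAAA in 8 (14.8%) and 18.6%, and TATAAA in 3 (5.56%) and 12.4%. The windows of Kcnc4, Kcnc1 and Kcnj12 held none of these motifs. Their G and C shares were 68.0%, 74.4% and 56.0%, and that of Kcna7 was 48.4%. A match is a description of the sequence, a missing one says only that these letters are not in the window, and no binding was measured.

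Of the alpha subunits of voltage-gated potassium channels, which form the pore, 10 of the 20 on the array met the signal rule. The lowest differences were those of Kcnc4 and Kcnc1, of the Kcnc family of fast channels. The direction of Kcnc4 was fixed by the rule, so no trait of that family is read from them. Kcnc4, whose channel opens at strong depolarisation and inactivates fast, read 2766 and 1076 on the non-transgenic against 119.8 and 63.6 on the MCK-PPARb arrays. Both MCK-PPARb signals lie far below both non-transgenic ones and below the lower quartile of all signals (138.7). The log2 difference was -4.30 ± 0.62 in the fit without a level filter, where Kcnc4 was called with limma (adjusted p = 0.0305). A second probe set of Kcnc4 read 1152 and 889 on the non-transgenic against 56.6 and 62 on the MCK-PPARb arrays (log2 -4.09 ± 0.63, adjusted p = 0.0431), so it has the same direction.

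Kcnc4 met the signal rule through the non-transgenic arrays alone, so a difference was part of how it entered, and no fold is drawn from its unraised signals, which lie near the bottom of the scale on the MCK-PPARb arrays. With signals below 444 units raised to that level, the difference was -1.96, or 3.88-fold, and it was not called (adjusted p = 0.337). The call was also lost without non-transgenic replicate 1 (-3.62, adjusted p = 0.109) and without the intensity trend (adjusted p = 0.509). The call held without any other single array, at adjusted p = 0.00798 to 0.0464, and with quantile normalization or median centring, and over all 11 settings its adjusted p ran from 0.00206 to 0.509. These combinations were chosen after seeing the data.

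Kcnc1, the other Kcnc gene that met the rule, read 2665 and 934 on the non-transgenic against 701 and 405 on the MCK-PPARb arrays. The groups do not overlap, but the non-transgenic arrays differed 2.85-fold from each other, about as much as the group means. The log2 difference was -1.57 ± 0.52 (limma, adjusted p = 0.331), and it was -0.81 without non-transgenic replicate 1 and -2.32, and called (adjusted p = 0.0365), without non-transgenic replicate 2, with adjusted p from 0.00927 to 0.707 over the alternatives. Kcna7, a Shaker-type channel known from heart and skeletal muscle, read 12391 and 11588 on the non-transgenic against 8151 and 7312 on the MCK-PPARb arrays. Its replicates lay close together in both groups, and the difference of -0.63 ± 0.18, 1.55-fold lower, did not pass (adjusted p = 0.243), with a range of -0.74 to -0.56 over the alternatives. Kcna5, a Shaker-type channel of heart and smooth muscle, read 1062 and 879.7 on the non-transgenic against 662 and 671 on the MCK-PPARb arrays (log2 -0.54 ± 0.29, adjusted p = 0.574). It also lay lower on both MCK-PPARb arrays.

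Genes of Shaker-type channels best known from axons showed no separation. Kcna1 read 350.4 and 423 on the non-transgenic against 767 and 207 on the MCK-PPARb arrays, Kcna2 414 and 187 on the non-transgenic against 489 and 231 on the MCK-PPARb arrays, and Kcna6 626 and 266 on the non-transgenic against 540.5 and 308 on the MCK-PPARb arrays. Their groups overlap, their log2 differences were 0.05, 0.27 and -0.0012, and all 3 lay below the filter level. None of the 10 axon and neuron markers lay above the filter, and their summed signal was 1565 and 1627 in the controls against 1463 and 1652. Of the ether-a-go-go type genes, Kcnh2, whose channel repolarises the heart, read 461 and 239 on the non-transgenic against 472 and 564 on the MCK-PPARb arrays, without overlap but below the filter (log2 0.64). Kcnh1 (0.033, whose sign turned with quantile normalization and with median centring) and Kcnh3 (-0.033) overlapped. The sign of Kcna1 turned with median centring as well.

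**Figure D2:**
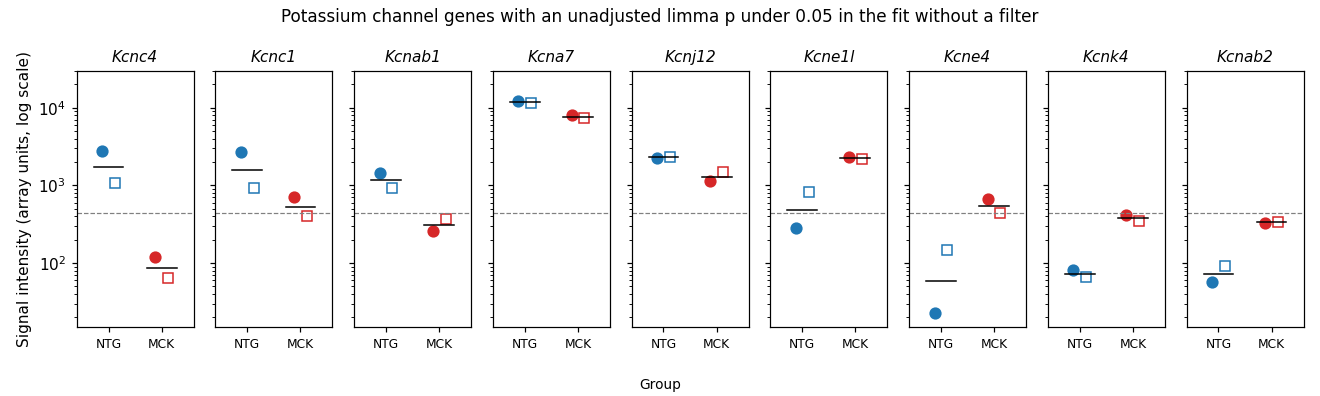
Signals (array units, log axis) of 9 potassium channel genes with an unadjusted limma p under 0.05 in the fit without a level filter; each panel shows the non-transgenic (NTG, blue) and MCK-PPARb (MCK, red) arrays, filled for replicate 1 and open for replicate 2, with a bar at the mean on the log scale and the 444 unit filter level dashed. Kcnc4, Kcnc1, Kcnab1, Kcna7 and Kcnj12 read lower and Kcne1l, Kcne4, Kcnk4 and Kcnab2 higher on both MCK-PPARb arrays, and for Kcnk4 and Kcnab2 all signals lie below the filter level.

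Auxiliary subunits of these channels differed in direction: 3 of the 5 that met the rule read higher and 1 lower without overlap, against 22.2% and 19.0% of all genes at that signal. Of the 3, Kcnab2 and Kcne4 met the rule through their MCK-PPARb signals alone, which fixed their direction. Kcnab1, a cytoplasmic beta subunit that speeds the inactivation of Shaker-type channels, read 1449.9 and 928 on the non-transgenic against 262 and 367 on the MCK-PPARb arrays. Both MCK-PPARb signals lie below both non-transgenic ones, 3.74-fold lower in the mean (log2 -1.90 ± 0.38). It had the smallest p of the 22 genes tested and missed the threshold (limma, adjusted p = 0.0993). Its second probe set, below the filter, read 714 and 569 on the non-transgenic against 262 and 137 on the MCK-PPARb arrays (log2 -1.75), lower by a like amount. With median centring Kcnab1 was called (-2.01, adjusted p = 0.0320), and over the alternatives its adjusted p ran from 0.00987 to 0.295.

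Kcnab2, the other beta subunit that met the rule, read 57 and 92.3 on the non-transgenic against 333 and 338 on the MCK-PPARb arrays. It thus lay higher on both MCK-PPARb arrays (log2 2.21 ± 0.80 without a filter, adjusted p = 0.516), but its signals were below the filter level on all arrays, and its other probe set read 47.8 and 18.9 on the non-transgenic against 41.9 and 18.1 on the MCK-PPARb arrays, at the bottom of the scale. No fold is drawn from these values. A joint test of the opposite directions of Kcnab1 and Kcnab2 was not made, since Kcnab2 entered through its MCK-PPARb signals alone.

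Of the Kcne genes, which encode short single-span subunits that modulate voltage-gated potassium channels, Kcne1l and Kcne4 met the rule. Kcne1l read 281 and 831 on the non-transgenic against 2323 and 2191 on the MCK-PPARb arrays. The MCK-PPARb arrays lie close together and lie above both non-transgenic ones, which differ 2.95-fold from each other. The log2 difference was 2.22 ± 0.48, or 4.66-fold, and did not pass (limma, adjusted p = 0.125). It was called without non-transgenic replicate 2 (adjusted p = 0.00464) and with median centring (2.12, adjusted p = 0.0421), and it was 1.44 without non-transgenic replicate 1 and 1.89 with signals raised to 444 units. Its adjusted p ran from 0.00197 to 0.295 over the alternatives.

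Kcne4, whose product inhibits several such channels, read 23 and 146 on the non-transgenic against 664 and 446 on the MCK-PPARb arrays. It met the rule on the MCK-PPARb arrays alone and so had to read higher. Kcne1 (-1.22), Kcne2 (-0.18, overlapping) and Kcne3 (-2.44) were too dim for the rule and read below 444 units on every array, so no direction is read from them. The non-transgenic signals of Kcne4 differ 6.36-fold and lie at the bottom of the scale, so its log2 difference has no certain size. It was 3.23 ± 0.99 (limma without a filter, adjusted p = 0.407) and 0.29 with signals raised to 444 units. Kcnip4, a calcium-binding subunit of the Shal-type channels, read 332 and 310.0 on the non-transgenic against 313 and 91.9 on the MCK-PPARb arrays. There the groups overlap, and 1 MCK-PPARb array alone was low (log2 -0.92).

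Inward rectifiers let potassium pass near the resting potential, and 5 of the 13 on the array met the rule. Kcnj12, Kcnj8 and Kcnj6 were lower without overlap, against 19.0% of all genes at that signal, and with 5 genes no more is read from it. Kcnj12, a strong inward rectifier of heart and skeletal muscle, read 2289 and 2307 on the non-transgenic against 1131 and 1497 on the MCK-PPARb arrays. The non-transgenic signals were nearly equal and both MCK-PPARb ones lay below them, 1.77-fold in the mean, without passing the adjustment (log2 -0.82 ± 0.25, limma, adjusted p = 0.276). Kcnj11, the pore of the ATP-sensitive potassium channel that couples muscle excitability to metabolism, read 4204 and 1248 on the non-transgenic against 1702 and 804 on the MCK-PPARb arrays. Its groups overlap, and non-transgenic replicate 1 stood 3.37-fold above replicate 2. The log2 difference of -0.97 ± 0.58 (adjusted p = 0.617) was -0.093 without non-transgenic replicate 1 and -1.84 without replicate 2.

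Kcnj8, the pore of the same kind of channel in vascular smooth muscle and pericytes, read 1505 and 1602 on the non-transgenic against 1228 and 1494 on the MCK-PPARb arrays (log2 -0.20 ± 0.25, adjusted p = 0.838), with a range of -0.34 to -0.056 over the alternatives. Markers of smooth muscle and pericytes had a median log2 difference of 0.062 over 8 tested, and none was called. The regulatory subunits of these channels are sulfonylurea receptors, of which Abcc8 lay below the filter and Abcc9 read 6580.4 and 6225 on the non-transgenic against 6786 and 4848 on the MCK-PPARb arrays (log2 -0.16 ± 0.22, adjusted p = 0.862). The G protein-gated genes Kcnj3 (0.42, overlapping) and Kcnj6 (-0.25, lower without overlap) lay below the filter level.

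Tandem-pore channels carry the background potassium current, and 2 of the 8 on the array met the rule, both of them of the stretch- and lipid-activated kind and both higher in MCK-PPARb muscle without overlap (22.2% of all genes at that signal). The direction of Kcnk4 was fixed by the rule, which it met through its MCK-PPARb arrays alone. Kcnk2 read 250.3 and 391 on the non-transgenic against 700.4 and 465 on the MCK-PPARb arrays (log2 0.87 ± 0.50 without a filter, adjusted p = 0.771). Kcnk4 read 80.5 and 66.1 on the non-transgenic against 413 and 347 on the MCK-PPARb arrays (log2 2.38 ± 0.76, adjusted p = 0.441). Both lay below the filter level in the mean, Kcnk4 on every array, so the direction is given and no fold.

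Calcium-activated potassium channels link the membrane to the calcium signal, and 3 of 9 genes of this kind met the rule. Kcnma1, the pore of the large-conductance channel, read 1861 and 1338 on the non-transgenic against 2629 and 2099 on the MCK-PPARb arrays. The MCK-PPARb arrays lie above the non-transgenic ones by 1.49-fold, without passing (log2 0.57 ± 0.26, limma, adjusted p = 0.505), and a second probe set, below the filter, had a log2 difference of 0.15. Kcnmb4, its beta subunit, overlapped (0.30). For Kcnn1, a small-conductance channel, the probe set of highest mean read 517 and 514 on the non-transgenic against 796 and 403 on the MCK-PPARb arrays and overlapped. Another Kcnn1 probe set, below the filter, had the opposite sign (-1.43), with 463 and 491 on the non-transgenic against 124 and 252 on the MCK-PPARb arrays. Kcnn3, a small-conductance channel known to appear in denervated muscle, did not meet the rule: it read 38.6 and 61.1 on the non-transgenic against 111 and 26.5 on the MCK-PPARb arrays.

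Of the voltage-gated sodium channel genes, 9 were on the array with a single-symbol probe set and 1, Scn3b, an auxiliary beta subunit, met the rule. It read 405 and 217 on the non-transgenic against 536 and 304 on the MCK-PPARb arrays, and the groups overlap (log2 0.44).

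Of the ClC family, 6 of 7 genes met the rule, and all 6 were tested. Clcn1 encodes the chloride channel that carries most of the resting conductance of the muscle fibre, and its loss causes myotonia. It read 4324 and 2985 on the non-transgenic against 2358 and 2540.2 on the MCK-PPARb arrays. Both MCK-PPARb signals lie below both non-transgenic ones, 1.47-fold in the mean, and the difference did not pass (log2 -0.55 ± 0.24, limma, adjusted p = 0.483). It was -0.29 without non-transgenic replicate 1 and -0.82 without replicate 2, and kept its sign over the 15 settings. The splicing factors Mbnl1 and Celf1, known to act on the Clcn1 transcript, had log2 differences of -0.31 and 0.39 (adjusted p = 0.670 and 0.760).

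The other ClC members are exchangers of endosomes and lysosomes. Clcn3 read 2047 and 2619 on the non-transgenic against 3022 and 3482 on the MCK-PPARb arrays, higher on both MCK-PPARb arrays without passing (log2 0.49 ± 0.23, adjusted p = 0.515). Its 3 other probe sets differed by 0.017 to 0.93, all of the same sign. Clcn4 overlapped in its probe set of highest mean (log2 -0.29 ± 0.29), while its other one read 1757 and 2119 on the non-transgenic against 1244 and 1251 on the MCK-PPARb arrays and did not overlap (log2 -0.63, adjusted p = 0.401). Clcn7, the lysosomal exchanger, read 1964 and 846 on the non-transgenic against 1335 and 701 on the MCK-PPARb arrays and overlapped (log2 -0.41 ± 0.47, with 0.19 without non-transgenic replicate 1). Clcn5 (0.17) and Clcn6 (0.25) overlapped as well. A dim probe set of Clcn5 was at -2.34, against 0.14 for its other one.

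The subunits of the calcium channel that couples excitation to contraction had differences below 0 in their probe sets of highest mean, and none was called. Cacna1s, its pore and voltage sensor, read 24057 and 19369 on the non-transgenic against 17802 and 19001 on the MCK-PPARb arrays, with the MCK-PPARb signals below the non-transgenic ones (log2 -0.23 ± 0.19, limma, adjusted p = 0.733). Cacnb1, the muscle beta subunit that anchors it, read 8824 and 7474 on the non-transgenic against 6270.0 and 6478 on the MCK-PPARb arrays (log2 -0.35 ± 0.19, adjusted p = 0.572). Its other kept probe set was of the opposite sign (0.14), so no direction is given for Cacnb1. Cacng1, the gamma subunit of that channel, read 17913 and 10727 on the non-transgenic against 13507 and 13375 on the MCK-PPARb arrays, and the groups overlap (log2 -0.044 ± 0.26, with 0.33 without non-transgenic replicate 1 and -0.41 without replicate 2).

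Cacna2d1, the extracellular alpha2-delta subunit, read 2990.2 and 2618 on the non-transgenic against 3311 and 1512 on the MCK-PPARb arrays. The groups overlap, with 1 MCK-PPARb array low in both of its probe sets (log2 -0.32 ± 0.36 and -0.93), and without that array, replicate 2, the difference was 0.24. Cacng6, a gamma subunit of skeletal muscle, read 5217 and 1807 on the non-transgenic against 3684 and 2292 on the MCK-PPARb arrays. It overlapped in both of its probe sets (-0.079 and 0.11), and the difference of the former was 0.69 without non-transgenic replicate 1 and -0.84 without replicate 2. Among calcium channel genes of other tissues, Cacna1d, of neuroendocrine cells, read 334 and 166 on the non-transgenic against 496 and 411 on the MCK-PPARb arrays, without overlap and below the filter (log2 0.94). Cacna1c, of heart and smooth muscle, read 177 and 314 on the non-transgenic against 310.2 and 179 on the MCK-PPARb arrays, with overlap (-0.002). The gamma subunit gene Cacng5 overlapped too (-0.43).

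**Figure D3:**
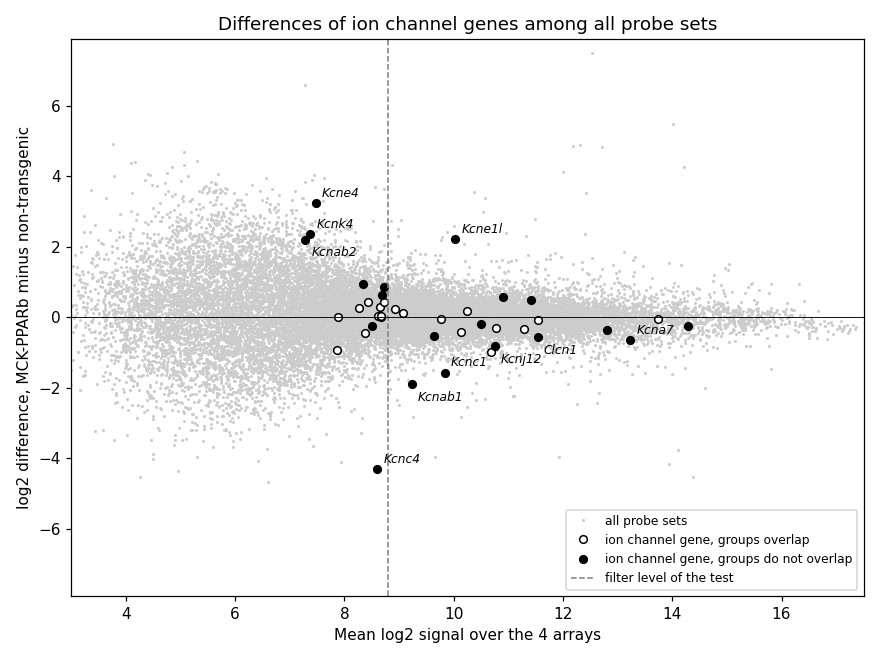
Log2 difference (MCK-PPARb minus non-transgenic) against the mean log2 signal over the 4 arrays; grey points are all probe sets and circles the 40 ion channel genes, filled where the groups do not overlap, with names for those with an unadjusted limma p under 0.05 in the fit without a level filter. Left of the dashed filter level the grey cloud widens, and Kcne4, Kcnk4 and Kcnab2 lie in its upper part, while Kcnc4 lies at -4.30.

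Of the 40 genes, 17 had more than 1 probe set and 23 a single one. Among 11 further probe sets with a mean of 300 or more, 9 had the sign of the probe set of highest mean and 2, of Cacnb1 and Cacng6, the opposite one. Among 13 dimmer ones, 5 had the same sign and 8 the opposite sign. The direction of a channel gene with a bright second probe set was thus mostly shared, and that of dim probe sets was not.

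**Figure D4:**
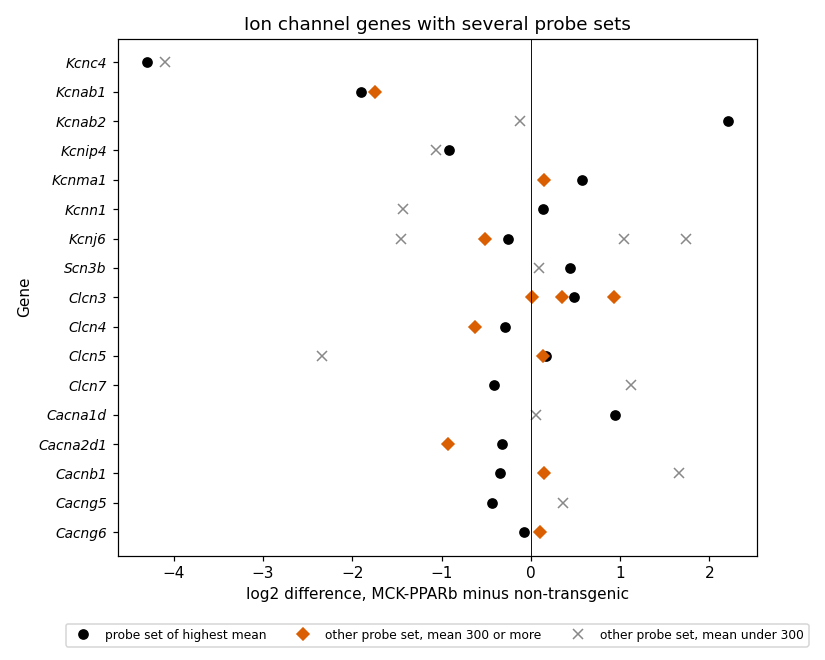
Log2 difference (MCK-PPARb minus non-transgenic) of every probe set of the 17 ion channel genes with several; black circles are the probe sets of highest mean, orange diamonds others with a mean of 300 units or more and grey crosses dimmer ones. Both probe sets of Kcnc4 and of Kcnab1 lie below 0, and the diamonds of Cacnb1 and Cacng6 lie on the other side of 0 from their circles.

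Proteins that bind these channels or work beside them were followed as a list of 49 genes, of which 36 were on the array and 24 were tested. None was called with limma, against 0.731% of all genes tested. An unadjusted limma p under 0.05 was found for 1, against 10.9% of all genes tested in either direction. It was Camk2g, a calcium-calmodulin kinase subunit, which was lower (-0.63 ± 0.21, adjusted p = 0.332). The median over the 24 was -0.11, against 0.011 over all genes tested. Ryr1, the calcium release channel that Cacna1s opens, read 143678 and 90478 on the non-transgenic against 96738 and 86183 on the MCK-PPARb arrays (log2 -0.32 ± 0.26).

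Genes known to respond to loss of the nerve, which also alters channel genes, were 9 tested of 14 on the array. With limma, 1 was called higher, Cdkn1a, a cell cycle inhibitor, and 0 lower, against 0.409% and 0.322% of all genes tested. Cdkn1a read 2079 and 1256 on the non-transgenic against 17252 and 19850.3 on the MCK-PPARb arrays (log2 3.52 ± 0.27, adjusted p = 0.00218). On the list 3 had an unadjusted limma p under 0.05, Cdkn1a, Chrna1 and Myh8, all higher, against 10.9% of all genes tested in either direction. Chrna1, the acetylcholine receptor alpha subunit, read 1368 and 1239.6 on the non-transgenic against 3362 and 3100.4 on the MCK-PPARb arrays (log2 1.31 ± 0.22, adjusted p = 0.0606). Myh8 did not pass (log2 1.19 ± 0.39, limma, adjusted p = 0.329). Chrne, the adult epsilon subunit (-0.63), Musk (-0.14), Chrnb1 (-0.034), Gadd45a (0.12), Fbxo32 (0.39) and Myog (0.92) did not pass. Chrnd (1.73), Chrng, the fetal gamma subunit (1.69), Ncam1 (1.12), Runx1 (0.59) and Myh3 (3.71) lay below the filter in their mean over all arrays. Chrnd and Chrng read below 444 units on every array. On the non-transgenic against the MCK-PPARb arrays, Myh3 read 59.9 and 182.5 against 1200.7 and 1560.8. Ncam1 read 296.5 and 259.5 against 537.5 and 677.8, and Runx1 1059.7 and 112.2 against 559.2 and 480.2. They were not tested, and no fold is drawn from them. The part of these genes in the channel values was not tested.

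Marker lists of muscle fibres and of other cell types were measured beside the channel genes. All 10 markers of the muscle fibre lay above the filter. Their median log2 difference was -0.31, beside -0.26 over the 22 channel genes tested. Their summed signal was 1842300 on non-transgenic replicate 1, 1086690 on replicate 2, and 1219130 and 1098320 on the MCK-PPARb arrays. Non-transgenic replicate 1 was thus the high array for fibre markers, by a median log2 of 0.78 over replicate 2, and it read above replicate 2 for 31 of the 40 channel genes and for 4511 of the 8342 genes at the signal rule. MCK-PPARb replicate 1 read above its replicate 2 for 29 of the 40 and 4079 of the 8342. Slow fibre markers had 6 of 8 with an unadjusted limma p under 0.05, all higher, against 5.31% of all genes tested that were higher. Their median was 1.12, with sums of 80852 and 122660.0 against 172226 and 200491. Schwann cell markers had a median of 0.67 over 5 tested, with sums of 19907 and 21725 against 32969 and 36723, and Mag and S100b lay below the filter. Adipocyte markers were at 0.89 over 4 tested, with Lep and Cidec below the filter, and their sums, 10411 and 14741 against 13688 and 13275, overlapped. No marker of these lists was called with limma. Endothelial markers were at -0.15, fibroblast markers at -0.15, leukocyte markers at 0.12 and the satellite cell marker tested at -0.22. Their part in the channel values was not tested, and in a bulk sample fewer cells of a type and less RNA per cell cannot be told apart.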

How the data were processed

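The authors deposited 1 linear signal intensity per probe set for each of 4 arrays, 2 per group. The submitters' processing notes name MAS5 and GCOS, without versions in the sources used here. Every array had a mean of 1501 once 2% of values at both ends were dropped. After removal of 64 controls from 22690 probe sets, 20380 carried 1 symbol, 691 several and 1555 none. No channel symbol changed on updating through the gene table of GRCm38.p6.

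Log2 signals were fitted with limma 3.58.1 in R 4.3.3 (intensity trend, 5.38 prior and 2 residual degrees of freedom) on 11313 probe sets above the filter, with adjustment over them. Each gene stands for its single-symbol probe set of highest mean. The fit was also run on simulated data with the same spread for every probe set, which does not test its intensity trend. Log2 signals correlated at 0.946 and 0.955 within groups and 0.924 to 0.946 between them, and the 10 brightest probe sets held 4.20% of the signal on non-transgenic replicate 1 and 2.36% to 2.78% elsewhere. Precision is limited by the number of arrays.

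The members, lists and tests were chosen with earlier results of these data known. By rule, the signal on every array was to be given for members that were called, had an unadjusted p under 0.05, met the rule through 1 group or stood on a list of muscle channels, and for listed partner genes that were called. Kcna2, Kcna6, Kcnh2, Kcnip4, Kcnn3, Cacna1d, Kcne1, Kcne2, Kcne3, the partner and denervation genes not called, and the printed promoters were added after their values were seen. Alternatives changed the scaling (quantile, median), the pseudocount (138.7), the filter (none, or the 75th percentile), the trend, the robust prior, the replicate block, the arrays included, the threshold, the probe sets used and the member rule. Combinations without a filter were added after seeing the data.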

Additional observations from a re-analysis of the deposited data

How the results depend on the processing

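Counts of called channel genes were small under every alternative. The count called higher, 0, became 1 with median centring and 1 with the replicate block (Kcne1l in both), and ran from 0 to 1 with an array left out. The count called lower, 0, became 1 with median centring (Kcnab1), 1 with no filter and 1 with the pseudocount (Kcnc4 in both), 2 with the replicate block (Kcnab1 and Kcnc1) and 1 at an adjusted p under 0.1 (Kcnab1), and ran from 0 to 1 with an array left out. The count of all genes called, 50, was 14 without the intensity trend, 218 with the replicate block and 26 to 105 with an array left out. Median centring moved the median gene by -0.11 on the log2 scale and the split of calls from 28 higher and 22 lower to 33 and 41. Deviations of samples with the same replicate number correlated at 0.276, and with 2 numbers and no label for them this is a hint from the data only. The number of channel genes chosen, 40, was 24 at 500 units and 21 when all 4 arrays had to reach 300. Of 270 values of 26 single channel genes, 260 kept their sign and side of the threshold or moved by less than the replicate spread, 7 passed the threshold only there, and 3 moved by more than that spread. Those 3 were Kcnc4 with the pseudocount (-3.04) and Cacnb1 with the mean of its probe sets (0.48) or without _s_at probe sets (0.14). Over all settings 17 of the 26 genes kept 1 sign, and Cacna1c, Cacna2d1, Cacnb1, Cacng1, Cacng6, Clcn7, Kcna1, Kcnn1 and Scn3b did not. The cause was not tested. Signals near or below 444 units limit what can be said of the 18 of the 40 genes below the filter. They also limit the tested genes Kcnab1, Kcne1l, Kcnc1, Kcnn1 and Clcn6, which read under 444 units on at least 1 array.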
